A study of Homo sapiens with 4 samples.

Results

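The genes that mark the 8-cell stage and the activation of the human embryonic genome were examined in human embryonic stem cells (hESCs) of the naïve and the primed state. The set held 10 genes, ZSCAN4, LEUTX, DUXA, TPRX1, DPRX, ARGFX, TRIM43, KDM4E, ZSCAN5B and CCNA1, of 62218 genes in the annotated tables, and they were found by gene symbol with all 18 of their annotated transcripts among 242542. Nanopore cDNA libraries were made from total RNA of H1, an established wild-type hESC line, with 2 libraries of naïve hESCs grown in FINE medium and 2 of primed hESCs grown in mTeSR1 (labelled TesR). The naïve cells were derived from the primed H1 line with a medium of kinase inhibitors, LIF, Activin A and bFGF under low oxygen, so a single line stands for each state, and the state and its medium cannot be told apart. The labels do not say whether the replicates came from separate cultures, so p-values measure only the spread between these libraries, which may be technical.

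Embryonic genome activation is the point at which the embryo begins to transcribe its own genes in place of maternal RNA, and in humans its main wave falls at the cleavage stage that gives the set its name. The double homeobox factor DUX4 is known to bind and activate many of these genes, including ZSCAN4, LEUTX, KDM4E and TRIM43 family members. Paired-like homeobox factors such as LEUTX, DUXA, TPRX1, DPRX and ARGFX then act in the cleavage embryo, and several of the genes are otherwise silent in most somatic tissues. Rare cells in pluripotent cultures can pass through a state that expresses such genes. In bulk libraries like these, fewer cells of a type and less RNA per cell cannot be told apart.

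The libraries held between 129276054 and 161548901 counts summed over transcripts. After 1 transcript was taken per gene, the genes tested held between 23489372 and 30936838 counts. A count of 0 allows up to 3 counts, which corresponded to 0.0979 to 0.130 CPM (counts scaled to a common library size) depending on the library, and limits and intervals cover counting error only. Library sizes for CPM were adjusted by the trimmed mean of M-values (TMM). The labels held against marker genes: all 8 naïve markers passed the test as higher in naïve hESCs, and all 8 primed markers passed as higher in primed hESCs. Their summed levels were 1055 to 1234 CPM in naïve against 77.1 to 78.8 CPM in primed libraries for the first list, and 141 to 146 against 724 to 820 CPM for the second. KLF17 of the first list passed at a log2 fold change of 0.41 and held 70.8 and 73.0 CPM of its primed sums. A processed pseudogene inside the span of KLF17 had nearly the same counts. A test needed 10 or more counts in 2 or more libraries. DPPA3, DNMT3L, SUSD2 and KLF4 met this only through their naïve libraries. ZIC2, SFRP2, THY1, DUSP6 and SALL2 met it only through their primed libraries, so the calls of these genes add no support. The lists were also chosen with earlier results of these data known, which further weakens this check of the labels.

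Of the 10 genes, ARGFX and TRIM43 differed most between the states. ARGFX had 172 and 153 counts in naïve hESCs and 15 and 16 in primed hESCs. TRIM43 had 16 and 11 counts in naïve hESCs and 0 in both primed libraries. CCNA1 was detected in all 4 libraries at similar counts. The remaining 7 genes, among them ZSCAN4, LEUTX and DUXA, never had more than 10 counts in any library. The naïve libraries held alignments at ARGFX, and alignments at TRIM43 that cannot be told from those of its near-identical copies. The widely used markers ZSCAN4 and LEUTX had at most 5 counts in the naïve libraries.

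**Figure D1:**
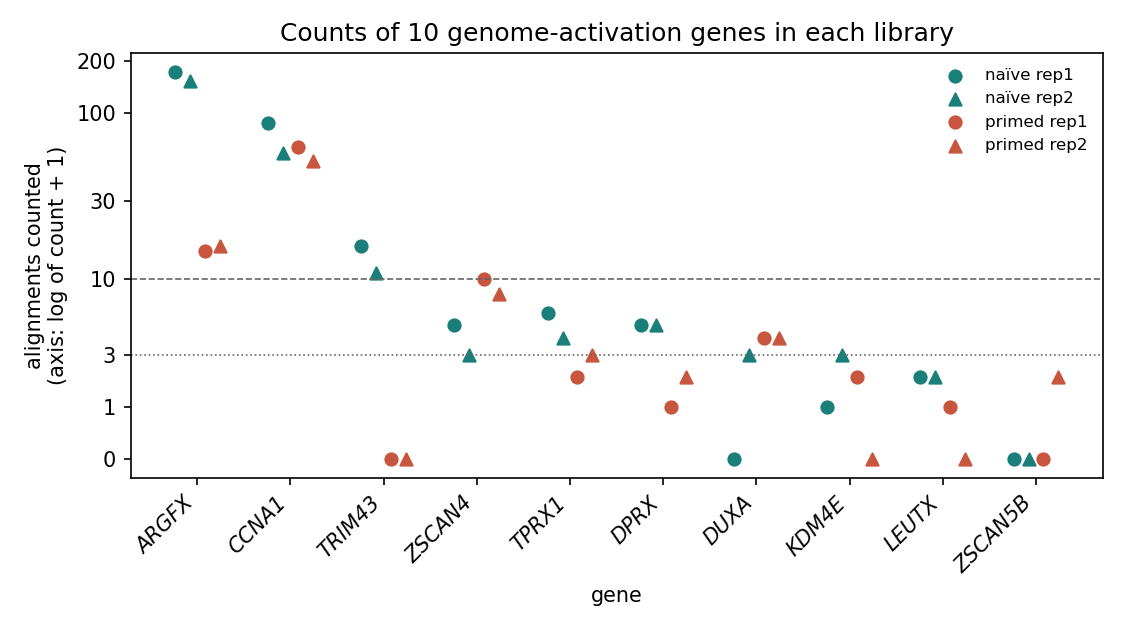
Counts of alignments of the 10 genes in each library, with the gene on the x axis and the count on a log(count + 1) y axis; circles are replicate 1, triangles replicate 2, the dotted line marks 3 counts and the dashed line 10 counts. ARGFX, TRIM43, DPRX, TPRX1 and LEUTX had both naïve libraries above both primed libraries, ZSCAN4 and DUXA the reverse, and 7 genes lay at or under 10 counts in all 4.

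A test needed 10 or more counts in 2 or more libraries, a limit that ARGFX, TRIM43 and CCNA1 met. All 3 were called higher in naïve hESCs (edgeR quasi-likelihood fit, adjusted p below 0.05), and none was called higher in primed hESCs. Across all 27633 genes tested, 70.0% were called, 32.6% as higher in naïve and 37.4% as higher in primed hESCs. TRIM43 passed the filter only through its naïve libraries and so had to differ. By CPM, 6 of the 10 genes had both naïve libraries above both primed libraries and 2 had the reverse, against 29.4% and 36.6% of all 50139 genes with a count. LEUTX is one of the 6 and had at most 2 counts in any library. The other 7 genes fell under the filter, as did 20.4% of the 19983 protein-coding genes and 14.9% of the 1473 on chromosome 19, where 6 of the 7 lie.

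Among the paired-like homeobox genes, ARGFX (ENSG00000186103) lies on chromosome 3 at chr3:121567949-121590622 on the plus strand of GRCh38, in a span of 22674 bases that no other annotated gene overlaps. Its naïve libraries held 7.46 and 6.003 CPM and its primed libraries 0.510 and 0.522 CPM. Both naïve libraries stood far above both primed ones, and replicates lay close together. The means were 6.73 ± 1.03 and 0.516 ± 0.00866 CPM (SD, n = 2), a 12.9-fold higher level in naïve hESCs (log2 fold change 3.69, SE 0.29, edgeR quasi-likelihood adjusted p = 3.19e-15). Per kb of exonic sequence, the level of ARGFX was 1.33 CPM in naïve and 0.102 CPM in primed hESCs, at percentiles 42.4 and 3.41 of 15902 tested protein-coding genes. By this measure ARGFX was middling in naïve hESCs and close to the bottom in primed hESCs. The whole span was counted with introns and without strand, so these ranks are approximate.

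The annotation holds 2 isoforms of ARGFX, ENST00000334384 with 5 exons and ENST00000651603 with 4, and the second lies within the span of the first. The inner isoform had 171, 153, 14 and 16 counts in the naïve and then the primed libraries. The stretch of 2765 bases that the outer isoform alone covers held 1 and 0 alignments in naïve and 1 and 0 in primed libraries. Nearly all alignments were thus counted for both isoforms. Differential isoform usage could not separate them, with isoform fractions of 48.7% to 51.3% in all 4 libraries and an adjusted p of 1 by edgeR's diffSpliceDGE, where 0.556% of all 159577 isoforms tested were called.

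The protein-coding genes whose levels over the 4 libraries lay nearest to those of ARGFX, by Euclidean distance of log2 CPM among 15901 genes, were ANGPT4, FES and PKD1L1. ANGPT4, an angiopoietin, was nearest at a distance of 0.263 with 162 and 181 counts in naïve and 13 and 17 in primed libraries. FES, a tyrosine kinase, followed at 0.287 and PKD1L1, a polycystin family member, at 0.308.

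The other paired-like genes were at the limit of detection in both states. DPRX, at chr19:53632056-53637009 on the plus strand, had 5 and 5 counts in naïve and 1 and 2 in primed hESCs. The scaled ratio of its counts was 4.12 with a 95% exact binomial interval of 1.06 to 23.3. It was not called without the count filter (edgeR adjusted p = 0.113). TPRX1, at chr19:47801243-47819051 on the minus strand, had 6 and 4 counts in naïve and 2 and 3 in primed hESCs, a ratio of 2.48 with an interval of 0.771 to 9.23. The short isoform ENST00000322175 had 3 and 3 counts in naïve hESCs and 0 in both primed libraries. In the 15362 bases that the long isoform ENST00000535759 alone covers there were 3 and 1 alignments in naïve and 2 and 3 in primed libraries. The span of the short isoform was thus reached in naïve libraries and not in primed ones, at counts no higher than the limit for a count of 0.

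DUXA, the double homeobox gene at chr19:57154021-57167485 on the minus strand, had 0 and 3 counts in naïve and 4 and 4 in primed hESCs. Its groups did not overlap, with primed above naïve, but the ratio of 2.16 had an interval of 0.517 to 12.6. LEUTX, a paired-like homeobox gene at chr19:39776595-39786135 on the plus strand, had 2 and 2 counts in naïve and 1 and 0 in primed hESCs, all at or under 3 counts, so no fold is given. Its second isoform had 2, 1, 1 and 0 counts in the same order. Without the count filter the edgeR adjusted p was 0.4995 for DUXA, 0.374 for LEUTX and 0.272 for TPRX1.

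ZSCAN4, a SCAN domain zinc finger gene widely used to mark genome activation, lies at chr19:57668935-57679152 on the plus strand. It had 5 and 3 counts in naïve and 10 and 8 in primed hESCs. Both primed libraries were above both naïve ones, at 0.340 and 0.261 against 0.217 and 0.118 CPM, opposite to ARGFX and TRIM43. The primed to naïve ratio was 1.82 with an interval of 0.752 to 4.83, and the edgeR adjusted p without the count filter was 0.348. A higher level of ZSCAN4 in naïve than in primed hESCs by more than 1.33-fold lay outside the counting interval. ZSCAN5B, a zinc finger relative at chr19:56189570-56197920 on the minus strand, had no count in 3 libraries and 2 counts in the second primed library for each of its 3 isoforms. KDM4E, a single-exon histone demethylase gene at chr11:95025258-95027596 on the plus strand, had 1 and 3 counts in naïve and 2 and 0 in primed hESCs. Neither ZSCAN5B nor KDM4E exceeded 3 counts in any library, and no difference was detectable at this depth.

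Promoter sequences of RefSeq (GRCh38.p14, windows around the start site) were found for 5 of the 10 genes, CCNA1, LEUTX, ZSCAN5B, DUXA and ZSCAN4, with 7 promoters in all. They were searched on both strands for TAATCC, which paired-like homeodomains of the CRX and OTX type bind, for the DUX4 consensus, and for TATAAA, the TATA box. TAATCC was in 2 of the 7 promoters and in 6.36% of all 35116 promoters. The DUX4 consensus was in 3 of the 7, of which a pair belong to ZSCAN5B and overlap, and in 0.888% of all. TATAAA was in 2 of the 7 and in 11.5% of all. The windows that hold the first 2 patterns are shown to make the matched letters visible, in genes that were near 0 here. The match is in capitals on either strand. They lie at chr19:39778748-39778823 on the plus strand for LEUTX, at chr19:57668796-57668855 on the plus strand for ZSCAN4 and at chr19:56197854-56197884 on the minus strand for ZSCAN5B.
LEUTX: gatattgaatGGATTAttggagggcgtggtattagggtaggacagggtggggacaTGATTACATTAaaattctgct
ZSCAN4: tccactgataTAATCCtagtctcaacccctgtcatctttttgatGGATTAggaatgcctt
ZSCAN5B: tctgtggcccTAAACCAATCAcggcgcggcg
A match is a description of these letters and not a bound site, and the 3 genes shown had at most 10 counts in any library.

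TRIM43, a RING-type tripartite motif gene of the DUX4-induced family, lies at chr2:95592001-95599778 on the plus strand with 7 exons. It had 16 and 11 counts in naïve and 0 in both primed hESCs, or 0.694 and 0.432 CPM against a limit of 3 counts per library. The level was at least 5.63-fold higher in naïve hESCs (edgeR quasi-likelihood adjusted p = 4.35e-07), though TRIM43 had to differ to pass the filter. TRIM43 has near-identical copies, and alignments were counted at every place they aligned, so the reads behind the copies cannot be told apart. TRIM43B had 16 and 13 counts in naïve and 0 in both primed libraries, and the pseudogene TRIM43CP had 15 and 12 and again 0. The 3 copies thus gave almost the same count. TRIM43 and TRIM43B matched at 96.5% of 1700 aligned columns, with a shared run of 733 bases. The shorter TRIM43CP matched TRIM43 at 59.3% of 1703 aligned columns, or 1010 of its own 1028 bases. Their longest shared run was 187 bases. The first 99 coding bases of TRIM43 (transcript bases 154 to 252) and the aligned stretches of the copies are shown to make this visible, read from the GENCODE transcripts with the differing positions in capitals.
TRIM43: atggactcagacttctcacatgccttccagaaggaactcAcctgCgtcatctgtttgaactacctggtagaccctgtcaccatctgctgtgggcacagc
TRIM43B: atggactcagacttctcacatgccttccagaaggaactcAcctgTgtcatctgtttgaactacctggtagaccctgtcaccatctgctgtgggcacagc
TRIM43CP: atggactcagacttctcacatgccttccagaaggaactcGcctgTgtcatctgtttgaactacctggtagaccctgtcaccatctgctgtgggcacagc
Counted from 1 at the A of the start codon, TRIM43B carries C45T, and TRIM43CP carries A40G and C45T.

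CCNA1, cyclin A1 of the germ line and early embryo, lies at chr13:36431520-36442869 on the plus strand. It had 87 and 58 counts in naïve and 63 and 52 in primed hESCs, and the raw counts of the groups overlapped. After TMM scaling the levels were 3.78 and 2.28 CPM in naïve and 2.14 and 1.70 CPM in primed hESCs, with means of 3.03 ± 1.06 and 1.92 ± 0.314 CPM (SD, n = 2). The log2 fold change of 0.65 (SE 0.27, edgeR quasi-likelihood adjusted p = 0.0316) rested on that scaling. It was 0.0051 (adjusted p = 0.988) with library size in place of TMM. Without the first naïve replicate it was 0.25 (adjusted p = 0.513) and without the second primed replicate 0.49 (adjusted p = 0.179). With DESeq2 it was 0.70 with an adjusted p of 0.107. The 4 isoforms of CCNA1 had identical counts in each library, so no isoform could be told from another and none was called.

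**Figure D2:**
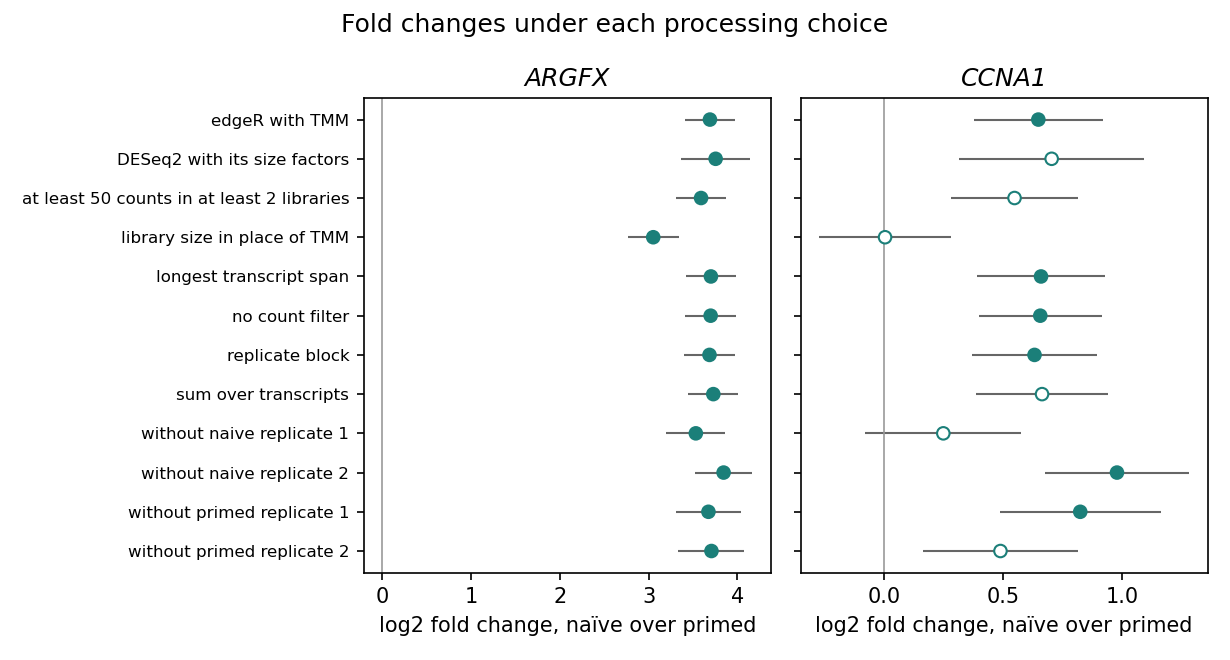
Log2 fold change of naïve over primed hESCs (x axis) for ARGFX and CCNA1 under each processing choice (y axis); points are fitted values, bars are 1 SE, filled points had an adjusted p under 0.05 and open points did not. ARGFX stayed between 3.05 and 3.85 and was called in each fit, while CCNA1 ranged from 0.0051 to 0.98 and lost its call in several.

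Ordered by CPM per kb of exonic sequence, the levels in naïve hESCs ran from CCNA1 and ARGFX through TRIM43 and DPRX to TPRX1 and LEUTX, then ZSCAN4, DUXA, KDM4E and ZSCAN5B. The libraries of CCNA1 and ARGFX overlapped, as did those of TRIM43 and DPRX, TPRX1 and LEUTX, ZSCAN4 and DUXA, and DUXA and KDM4E. In primed hESCs the order began with CCNA1 at 1.10 CPM per kb, with ZSCAN4 at 0.134, DUXA at 0.127 and ARGFX at 0.102 next. ZSCAN4 and DUXA overlapped there, and so did each neighbouring pair from DPRX down to TRIM43. ARGFX came after CCNA1 alone in naïve hESCs, and behind ZSCAN4 and DUXA as well in primed hESCs, where TRIM43 was last. Spans were counted with their introns, so these levels are approximate.

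A list of other genome-activation genes was examined beside the set. The list of 35 holds DUX4, TRIM, MBD3L, PRAMEF and RFPL family members, KHDC1L, ZNF280A, the histone variant gene H3Y1, SLC34A2 and NANOGNB. Of these, 15 were tested. All 15 were called higher in naïve and none higher in primed hESCs, against 32.6% and 37.4% of all genes tested. Each of the 15 except NANOGNB passed the filter only through its naïve libraries and so had to differ. Several are near-identical copies, such as TRIM49 and TRIM49C with 99.6% identity, the MBD3L cluster, and TRIM43B with TRIM43 itself, so these tallies can count the same alignments more than once. A group of 15 of the 35 had 0 counts in both primed libraries and more than 3 in a naïve library, a tally without a share over all genes. By CPM, 25 had both naïve libraries above both primed libraries, against 2 with the reverse. The shares over all genes with a count were 29.4% and 36.6%.

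KHDC1L, a KH domain gene, stood far above the rest with 27211 and 26908 counts in naïve and 4 and 2 in primed hESCs. Its mean was 1118 ± 88.4 CPM in naïve and 0.101 ± 0.05001 CPM in primed hESCs (SD, n = 2; log2 fold change 13.38, edgeR quasi-likelihood adjusted p = 3.63e-35). KHDC1L lies on the same strand inside the span of the protein-coding gene ENSG00000243501, which had 27276 and 26964 counts in naïve and 52 and 58 in primed hESCs, so alignments to one were counted for both. It supplied most of the summed level of the list, 1077 to 1208 CPM in naïve against 1.60 CPM in both primed libraries.

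MBD3L5, a gene of a tandem cluster related to methyl-CpG binding proteins, had 72 and 45 counts in naïve hESCs and 0 in both primed libraries, at least 24.5-fold higher. MBD3L2 had 67 and 42 counts and MBD3L4 66 and 42, again with 0 in both primed libraries, at least 22.8-fold and 22.6-fold higher. MBD3L4 and MBD3L5 matched at 98.7% of aligned columns, so their counts may come from the same reads. The next genes were chosen after their values were seen. TRIM49 had 23 and 28 counts, H3Y1 38 and 31 and ZNF280A 31 and 20 in naïve hESCs, and each had 0 in both primed libraries. SLC34A2, a phosphate transporter gene, had 64 and 93 counts in naïve against 8 and 5 in primed hESCs.

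DUX4 itself, the factor upstream of many of these genes, had 5 and 1 counts in naïve hESCs and 0 in both primed libraries. RFPL2 went the other way, with 0 in both naïve and 7 and 11 in primed libraries. NANOGNB, a homeobox gene beside NANOG, was detected in both states with 15 and 23 counts in naïve and 11 and 10 in primed hESCs (log2 fold change 1.15, edgeR quasi-likelihood adjusted p = 0.0178), and it lost that call with DESeq2 and with library size in place of TMM. Its log2 fold change was no longer called without the second naïve replicate (0.89), without the first primed replicate (1.25) or without the second (1.05). DUX4, RFPL2 and NANOGNB were also chosen after their values were seen. Most of the list was at 0 in primed hESCs, where ARGFX had 15 and 16 counts.

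**Figure D3:**
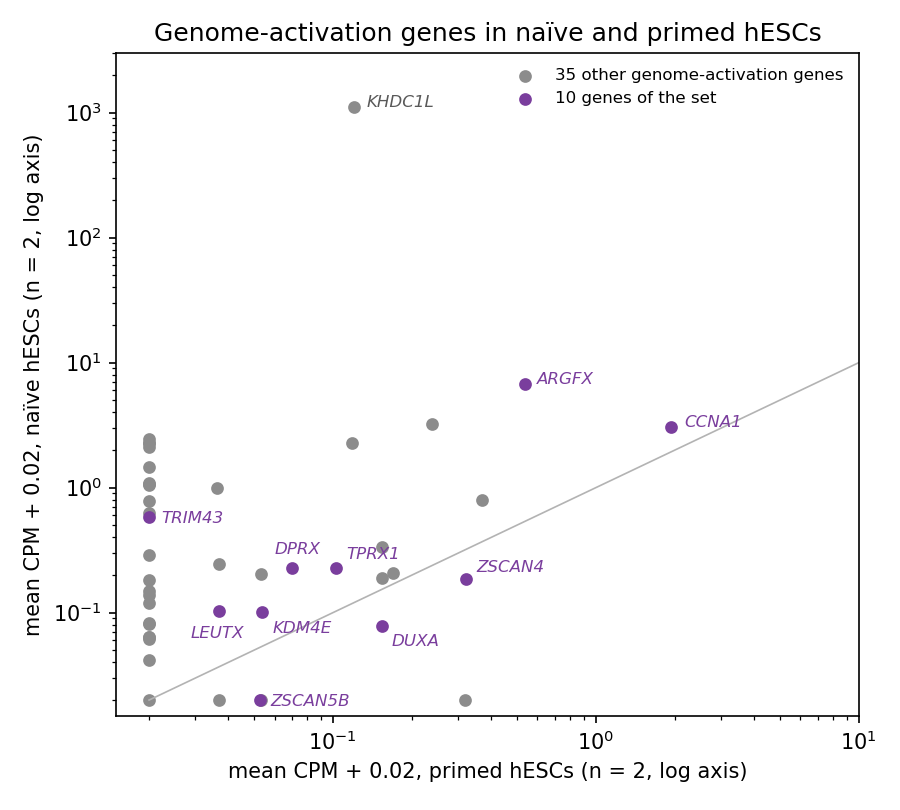
Mean CPM plus 0.02 in naïve hESCs (y axis) against primed hESCs (x axis), both on log axes with n = 2 libraries each, for the 10 genes of the set (purple) and 35 other genome-activation genes (grey); the line marks equal levels. ARGFX lies above the line, ZSCAN4 and DUXA lie below it, KHDC1L is highest, and the column of points at the left had 0 counts in both primed libraries.

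Of 15 relatives of the 10 genes in the same families, 12 were tested, 2 were called higher in naïve, 6 higher in primed and 4 in neither. Over all genes tested, 32.6% were called higher in naïve and 37.4% higher in primed hESCs, so the number called in all was near the background. The relatives had a median log2 fold change of -0.57 against -0.08 over all genes tested. The 2 called higher in naïve hESCs were TRIM43B, which is also among the 35 other genome-activation genes, and KDM4C. KDM4C had 4282 and 4688 counts in naïve and 3494 and 4321 in primed libraries. The pseudogene SNRPEP2, which overlaps it over 279 bases, had 3384 and 3732 against 2848 and 3419. Other annotated genes overlap 7 of the 15 relatives, and counting was without strand. Without the first primed replicate, or with library size in place of TMM, 1 was called higher in naïve hESCs. OTX2, a paired-like homeobox gene that is also among the primed markers, had 29 and 36 counts in naïve and 520 and 473 in primed hESCs (log2 fold change -3.63, edgeR quasi-likelihood adjusted p = 6.00e-19), and the antisense gene OTX2-AS1 overlaps it. ZSCAN10, a pluripotency zinc finger gene, had 45 and 44 counts in naïve and 412 and 414 in primed hESCs, a log2 fold change of -2.90. KDM4D, a histone demethylase gene of the KDM4E family, had 4 and 6 counts in naïve and 32 and 46 in primed hESCs, a log2 fold change of -2.63. KDM4D and OTX1 met the count filter only through their primed libraries and TRIM43B only through its naïve libraries, so their calls add no support. CCNA2, the somatic cyclin A, had 784 and 819 counts in naïve and 1003 and 840 in primed hESCs and was not called (log2 fold change 0.10, edgeR quasi-likelihood adjusted p = 0.546).

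All 17 genes listed as regulators of genome activation were tested. Of these, 8 were called higher in naïve, 6 higher in primed and 3 in neither, with a median log2 fold change of 0.30. Against the same 32.6% and 37.4% of all genes tested, this is no result about the regulators as a group. With library size in place of TMM 4 were called higher in naïve hESCs, and without the first primed replicate 3 were called higher in primed hESCs. KLF5, a Krüppel-like factor that is also among the naïve markers, had 295 and 434 counts in naïve and 22 and 28 in primed hESCs (log2 fold change 4.16, edgeR quasi-likelihood adjusted p = 1.16e-19). TFAP2C, an AP-2 factor of naïve cells and trophoblast, had 221 and 372 counts against 57 and 75, a log2 fold change of 2.46. NFYA, a subunit of NF-Y, had a log2 fold change of 1.17 and GABPA, an ETS factor, of 1.10. Counting was without strand, and neither count can be told from that of overlapping genes. OARD1 overlaps NFYA over 24785 bases and the antisense gene ENSG00000287678 over 20433 bases, and ATP5PF overlaps GABPA over 1077 bases. DPPA2 and DPPA4 of the same list went in opposite directions. DPPA2, with 163 and 180 counts in naïve and 117 and 125 in primed hESCs, rose by 0.81 on the log2 scale, and it lost that call with library size in place of TMM (0.17). DPPA4 had 1956 and 1818 counts in naïve against 5059 and 4764 in primed hESCs and fell by 1.07 on the log2 scale (edgeR quasi-likelihood adjusted p = 1.86e-08). DPPA2 and DPPA4 were chosen after their values were seen.

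Markers of trophoblast moved with the state alongside ARGFX and TRIM43. Of 10 trophoblast markers, 9 were called higher in naïve hESCs, 0 higher in primed hESCs and KRT7 in neither. Over all genes tested, 32.6% were called higher in naïve and 37.4% higher in primed hESCs. CGA, GATA2, TFAP2A, ERVW-1, ELF5 and TP63 met the count filter only through their naïve libraries, so their calls add no support. Other annotated genes overlap 8 of the 10 markers, and counting was without strand. The summed level of the 10 was 1740 and 2090 CPM in naïve against 8.88 and 9.30 CPM in primed libraries. Most of that sum was CGA, the glycoprotein hormone alpha subunit, with 35747 and 47550 counts in naïve and 0 and 1 in primed hESCs. ERVW-1, the syncytin gene, had 1167 and 1615 counts against 0 and 3. Their part in the levels of the genome-activation genes was not tested. Endoderm markers summed to 14.5 and 22.7 CPM in naïve and 15.6 and 15.2 CPM in primed libraries, with 2 called higher in naïve and 3 higher in primed hESCs of 6 tested. Mesoderm and fibroblast markers summed to 4.90 and 3.81 CPM in naïve and 116 and 111 CPM in primed libraries. Of 6 tested, 3 were called higher in primed and 0 in naïve hESCs. In these last 2 lists PDGFRA, APOA1, AFP, COL1A2 and VIM met the count filter only through their primed libraries, so their calls add no support.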

How the data were processed

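Gene counts of 4 Nanopore cDNA libraries of H1 naïve (FINE) and primed (TesR) hESCs were used, 2 per state. The authors aligned reads to GRCh38 with minimap2 and deposited raw counts per transcript, made with featureCounts 2.0.0 on Ensembl annotation 105, per the file headers. Whole transcript spans were counted, introns included, without strand, and an alignment was counted for each transcript it overlapped and at each place it aligned. Of 244825 transcripts, 242542 were matched by identifier to GENCODE 44, and the 2283 others, with 1.00% of all counts, were not tested.

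Each gene was represented by its transcript of largest mean count. Tests took genes with 10 or more counts in 2 or more libraries and used edgeR 4.0.16 (TMM, quasi-likelihood, two-sided, Benjamini-Hochberg over all genes) in R 4.3.3, called at an adjusted p under 0.05. Isoform usage was tested with diffSpliceDGE and also needed a difference of isoform fraction beyond 0.1. Ratios of low counts carry exact 95% binomial (Clopper-Pearson) intervals, scaled by TMM library sizes. Scripts were tested on simulated data. Alternatives were DESeq2 1.42.0, library size, a replicate block, other count filters, sums over transcripts, the longest span, a fold threshold and each library left out.

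The genes and lists were chosen with earlier results of these data known. The rule named all 10 genes, annotated genes overlapping them, pseudogenes named after them, the 4 largest changes called in each list, and the 3 genes most like the member with the highest naïve CPM. Lists of shared pluripotency, naïve, primed, trophoblast, endoderm and mesoderm and fibroblast markers were counted in the same way.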

Additional observations from a re-analysis of the deposited data

How the results depend on the processing

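ARGFX kept its direction and call under every alternative run, with log2 fold changes from 3.05 with library size in place of TMM to 3.85, and from 3.53 to 3.85 with each library left out. TRIM43 passed the filter only through its naïve libraries, so the call it kept wherever it was tested adds no support. Its fitted values ran from 6.57 with DESeq2 to 7.28, and from 6.64 to 7.28 with each library left out. These are no bounds, since both primed libraries were at 0, and it was not tested at a minimum of 50 counts. CCNA1 lost its call with DESeq2 (0.70, adjusted p = 0.107), library size (0.0051), a minimum of 50 counts (0.55), sums over transcripts (0.66) and a log2 fold threshold of 1 (0.65), and ranged from 0.25 to 0.98 with each library left out. Called higher in naïve hESCs were 2 to 3 of the 10 genes with a library left out and 1 at a minimum of 50 counts. Of the 35 other genome-activation genes, 14 to 15 were called higher in naïve with a library left out and 2 at a minimum of 50 counts, and 1 was called higher in primed without a filter and 1 with sums over transcripts. Relatives called higher in naïve were 1 with library size, a minimum of 50 counts or the fold threshold, and 1 to 2 with a library left out (1 without the first primed replicate). Regulators called higher in naïve were 4 with library size or the fold threshold, and those higher in primed were 2 with the fold threshold and 3 to 6 with a library left out (3 without the first primed replicate). KDM4C went from 0.51 to -0.13 with library size. Over all genes, library size moved the median log2 fold change from -0.08 to -0.72 and gave 4504 genes higher in naïve and 15541 higher in primed hESCs, against 9008 and 10327, and the fold threshold gave 5120 higher in naïve.

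Pairing by replicate number was not shown, since same-numbered samples had a correlation of 0.0591 in their deviations over 27630 genes and there were 2 pairs. With the replicate block, ARGFX gave 3.69, TRIM43 6.94 and CCNA1 0.63 (edgeR adjusted p = 0.0229), and 19689 genes were called against 19335. At this depth, 3 counts is about 0.1 CPM, so the 7 genes under the filter could not be compared firmly.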

Other observations

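Entries with the names of pseudogenes of the 10 genes numbered 23, of which 1, an entry of DUXAP8, is annotated as a lncRNA. TRIM43CP was the one tested. Of the 23, 15 had at most 3 counts in every library. The 12 entries of DUXA had 0 to 9 counts and the 7 of DPRX 0 to 9. DPRXP1 had 7 and 8 counts in naïve and 2 and 0 in primed hESCs, the same order of states as DPRX itself, whereas DPRXP5 had 0 and 0 against 1 and 2. ARGFXP2 had 1 and 2 counts in naïve and 5 and 4 in primed hESCs, the reverse of ARGFX.

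Among shared pluripotency markers, 1 of 6 was called higher in naïve, 4 higher in primed and 1 in neither by edgeR's quasi-likelihood test. The shares over all genes tested were 32.6% higher in naïve and 37.4% higher in primed hESCs. Summed levels of these markers were 438 to 505 CPM in naïve and 686 to 694 CPM in primed libraries.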
